A study of Rattus norvegicus with 36 samples.

Results

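Matrix-degrading proteases and their inhibitors were followed in the lung of rats that inhaled crystalline silica. The set held 10 genes, taken by their symbol in the array annotation: the secreted metalloproteinases Mmp2, Mmp7, Mmp8, Mmp9 and Mmp12, the membrane-bound metalloproteinase Mmp14, the cysteine protease Ctsk and the tissue inhibitors Timp1, Timp2 and Timp3. Each had 1 probe, and they were 10 of the 13315 genes that the 21792 probes named. All 10 passed the filter on dim probes and stood among the 9078 genes tested. Mmp7 passed it only through silica rats, since all 11 arrays on which it exceeded background came from them.

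Lung total RNA of 36 male CDF Fisher 344 rats, aged 3 months per the labels, was hybridised to Illumina rat BeadChips, 1 array per rat and 375 ng of RNA per labelling. On 5 days of the week the silica rats spent 6 h in crystalline silica at 15 mg/m3, and the rats labelled as receiving no silica are called air here. Silica ran for 3, 6 or 12 weeks with air controls of their own at every time, 6 groups in all with 6 rats in each. Nothing in the labels says which arrays shared a chip.

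Matrix metalloproteinases are zinc enzymes that are made as inactive precursors and together cleave most proteins of the extracellular matrix. The tissue inhibitors of metalloproteinases (TIMPs) bind their active site, and TIMP2 also takes part in the activation of pro-MMP2 by MMP14 at the cell surface. Cathepsin K works in acid compartments, where it cleaves collagen and elastin. It is best known from osteoclasts. In the lung, macrophages are the main source of MMP12 (macrophage elastase) and also make cathepsin K, neutrophils store MMP8 and MMP9 in granules, and the epithelium makes MMP7 (matrilysin).

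The genes lie on several chromosomes, and 3 of them share a stretch of rat chromosome 8 (RefSeq, GRCr8). There Mmp12 spans 12866652 to 12876554, Mmp8 spans 13008873 to 13018729, and Mmp7 spans 13133043 to 13140761. The promoters of Mmp12, Mmp7 and Ctsk are printed because these members differed most between silica and air at 12 weeks. Each line gives the 250 bases before the transcription start, from RefSeq on GRCr8, 5′ to 3′ on the gene's strand, which is the plus strand for all of them. Capitals mark matches to TATAAA, the TATA box, and to TGANTCA, the site of AP-1 factors. Mmp12 lies at chr8:12866402-12866651, Mmp7 at chr8:13132793-13133042 and Ctsk at chr2:185747298-185747547.
Mmp12: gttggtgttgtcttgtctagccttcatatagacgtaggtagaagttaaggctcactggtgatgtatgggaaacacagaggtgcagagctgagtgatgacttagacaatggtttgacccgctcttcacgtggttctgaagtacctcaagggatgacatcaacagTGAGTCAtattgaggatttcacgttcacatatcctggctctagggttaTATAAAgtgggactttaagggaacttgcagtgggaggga
Mmp7: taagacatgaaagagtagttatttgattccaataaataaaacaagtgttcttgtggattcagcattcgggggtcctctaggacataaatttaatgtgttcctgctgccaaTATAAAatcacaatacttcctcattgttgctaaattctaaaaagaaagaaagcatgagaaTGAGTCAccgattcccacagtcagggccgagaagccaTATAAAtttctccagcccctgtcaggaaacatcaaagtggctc
Ctsk: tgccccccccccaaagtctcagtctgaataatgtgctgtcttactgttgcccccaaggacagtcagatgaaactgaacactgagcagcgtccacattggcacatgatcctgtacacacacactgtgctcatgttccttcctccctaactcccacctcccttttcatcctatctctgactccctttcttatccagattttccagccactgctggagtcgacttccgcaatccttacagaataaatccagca

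Promoters were found for 7 of the 10 genes, all but Mmp2, Mmp9 and Mmp14. Both strands were searched for these letters (TGANTCA is its own reverse complement) and for an NF-kB site, GGGA and CC with any 4 bases between them. In Mmp12 the match TGAGTCA covered bases 87 to 81 before the start and TATAAA bases 39 to 34. In Mmp7 the same 7 letters covered bases 80 to 74, and TATAAA stood at bases 43 to 38 and again at 140 to 135. With the TATAAA nearest the start, the 2 promoters thus held the AP-1 and TATA letters in the same order and at like distances from the start. The other TATAAA of Mmp7 lay upstream of its AP-1 letters. Among 33469 rat promoters of this length, 6.34% held TGANTCA, 12.9% held TATAAA and 1.02% held both. Mmp8, between these genes on the chromosome, held TATAAA on the minus strand at bases 30 to 25 and no TGANTCA. Timp2 held GGGAGCGCCC at bases 202 to 193, an NF-kB form found in 16.4% of promoters, and none of the 3 motifs matched in Ctsk, Timp1 or Timp3. No overlap between motifs occurred in the printed promoters, and a match of letters does not show that a factor binds there.

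Levels are given as log2 of the background-corrected and quantile-normalised intensity of the gene's probe. Calls rest on limma's moderated test, with p adjusted by Benjamini and Hochberg's method across the 9078 genes and a threshold of 0.05. A probe counted as above background on an array where its detection p lay under 0.05. Changes are silica minus air with the standard error (SE) of the model. The probes that exceeded background made up 48.7 to 53.1% of all probes per array, and the mean raw intensity per array lay between 344.6 and 519. The type II pneumocyte markers Sftpa1, Sftpb, Sftpc and Sftpd exceeded background on all 36 arrays. On the first principal component, which held 54.5% of the variance, the 12 arrays of week 6 lay at 22.7 to 29.8 and 22 arrays of the other weeks at -25.0 to -8.10. Rat 5 of the air group at 3 weeks (8.72) and rat 3 of the silica group at 12 weeks (15.1) lay between them. As every week had rats of its own and the labels give no batch, exposure time, age at sampling and any batch of arrays cannot be told apart, and results that rest on those 2 rats are given with and without them.

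At 3 weeks, 3 of the 10 genes were called higher in silica (Mmp12, Mmp14 and Ctsk) and 1 lower (Timp2), where 13.6% of all tested genes were called, 7.51% higher and 6.08% lower. At 6 weeks the same 3 genes were called higher and 0 lower in limma, against 17.3% of all genes, 8.8% higher and 8.5% lower, and at an unadjusted p under 0.05 there were 5 higher and 0 lower. At 12 weeks 5 were called higher (Mmp7, Mmp12, Mmp14, Ctsk and Timp1) and 0 lower, and 6 were higher and 0 lower at an unadjusted p under 0.05, against 25.9% of all genes, 11.7% higher and 14.2% lower. Mmp7 entered this count only through silica rats, since no air array passed the filter's threshold for it. With no filter on detection it was also called (limma, adjusted p = 1.87e-07), and with detection on at least 12 arrays it was not tested. Being called higher at all 3 weeks was met by 3 of the 10 genes and by 4.26% of all genes. The median change over the 10 genes was 0.13, 0.14 and 0.37 on the log2 scale at 3, 6 and 12 weeks, against -0.001, -0.016 and -0.016 over all tested genes. With median scaling in place of quantile normalisation, the share of calls that were higher moved over all genes to 86.2%, 70.4% and 32.5% at 3, 6 and 12 weeks, against 55.3%, 50.9% and 45.1%.

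**Figure D1:**
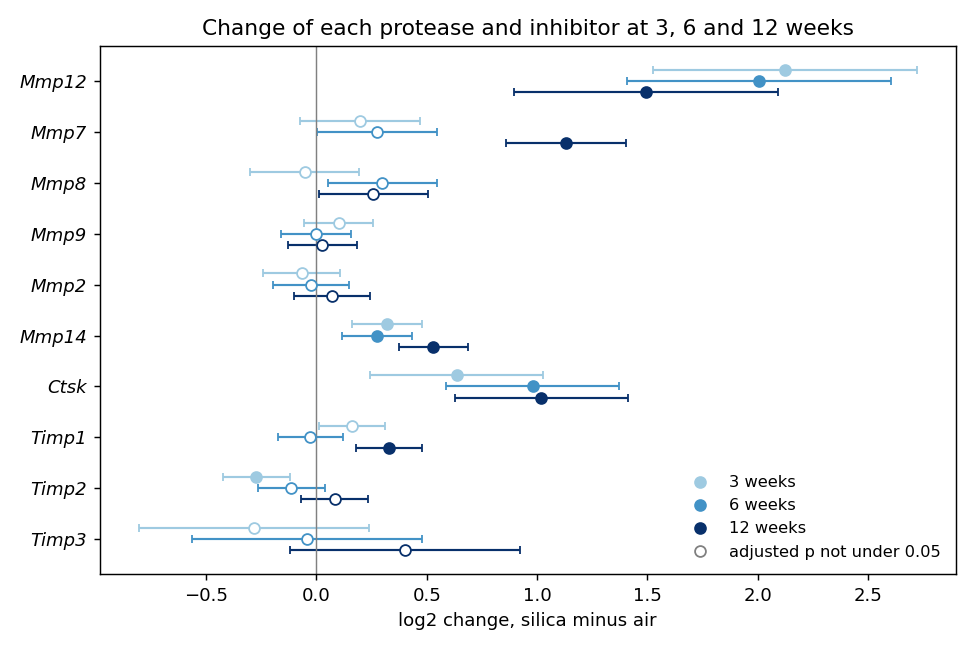
Log2 change, silica minus air, of each of the 10 genes at 3, 6 and 12 weeks, with 95% confidence intervals of the model (6 rats per group) and filled points where the adjusted p was under 0.05. Mmp12 lay farthest to the right at each week, Mmp7 moved at 12 weeks, and the intervals of Mmp2, Mmp9 and Timp3 covered 0 throughout.

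Mmp12, the macrophage elastase, showed the widest difference of the set at each week. At 3 weeks its level was 8.88 in the lowest silica rat, 10.13 at the median and 10.70 in the highest, against 7.38, 7.80 and 8.72 in air rats. At 6 weeks the silica rats lay at 8.87, 9.33 and 9.73 (lowest, median and highest) and the air rats at 6.46, 7.58 and 7.93. At 12 weeks these values were 9.01, 9.44 and 9.78 in silica and 6.60, 8.13 and 8.57 in air. Every silica rat therefore stood above every air rat at each week, which 3.89%, 5.17% and 5.62% of all tested genes did at 3, 6 and 12 weeks. Mmp12 rose by 2.12 ± 0.29 (4.35-fold, adjusted p = 5.64e-06) at 3 weeks, by 2.005 ± 0.29 (4.01-fold, 4.76e-06) at 6 weeks and by 1.49 ± 0.29 (2.81-fold, 0.000236) at 12 weeks (limma, log2 ± SE). The effect at 12 weeks minus that at 3 weeks was -0.63 with a 95% confidence interval of -1.47 to 0.22, so a smaller effect at 12 weeks was not shown (adjusted p = 0.371).

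Mmp7, which processes defensins and cell-surface proteins as well as matrix, differed mainly at 12 weeks. It exceeded background in 1, 4 and 6 of 6 silica rats at 3, 6 and 12 weeks and in 0 of 6 air rats at each week. At 12 weeks the silica rats lay at 5.11, 5.62 and 6.52 (lowest, median and highest), against 4.43, 4.62 and 4.67 in air rats. The spread among silica rats at that week was 0.53 (SD), against 0.09 among air rats, and the groups did not overlap. With the main background correction, Mmp7 rose by at least 1.81-fold at 12 weeks (limma, adjusted p = 8.72e-08, with mean levels of 5.72 and 4.59 in silica and air). This bound was set against the dimmest signals above background because the air rats gave only an upper limit. It holds for that correction only, since the change was smaller with other background treatments, as given below.

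At 3 weeks Mmp7 lay at 4.64 to 4.92 in silica and 4.54 to 4.62 in air, and at 6 weeks at 4.64 to 5.20 in silica and 4.52 to 4.74 in air. Neither comparison passed in the model of all arrays (adjusted p = 0.353 and 0.173). The 3-week groups did not overlap, and a fit of 1 week's arrays alone gave an adjusted p of 0.0235 at 3 weeks (0.0235 to 0.504 over the alternatives) and 0.0326 at 6 weeks (0.0326 to 0.455). Mmp7 entered the tests only through silica rats. The silica effect at 12 weeks was called different from that at 3 weeks (limma, adjusted p = 0.0150, and 0.0176 with no filter on detection), as for 2.86% of all genes. Its size, 0.93 in fitted levels, is no measured size, since no air rat and only 1 silica rat at 3 weeks exceeded background, and it ran from 0.10 with the background from all probes to 1.06 over the alternatives (adjusted p 0.00161 to 0.0321). Mmp7 was the only one of the 10 genes with such a call. The size of the 12-week change depended on the background correction, at 0.12 with the background taken from all probes, 0.29 in a fit of the authors' deposited log2 values, 0.78 without correction and 1.13 in the main setting, with the call kept in each. Of 8 type II pneumocyte markers tested, 3, 6 and 5 were called higher at 3, 6 and 12 weeks, against 7.51%, 8.8% and 11.7% of all genes, with a mean level at 12 weeks of 12.73 to 12.91 in silica and 12.43 to 12.63 in air. Their part in the change of Mmp7 was not tested.

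**Figure D2:**
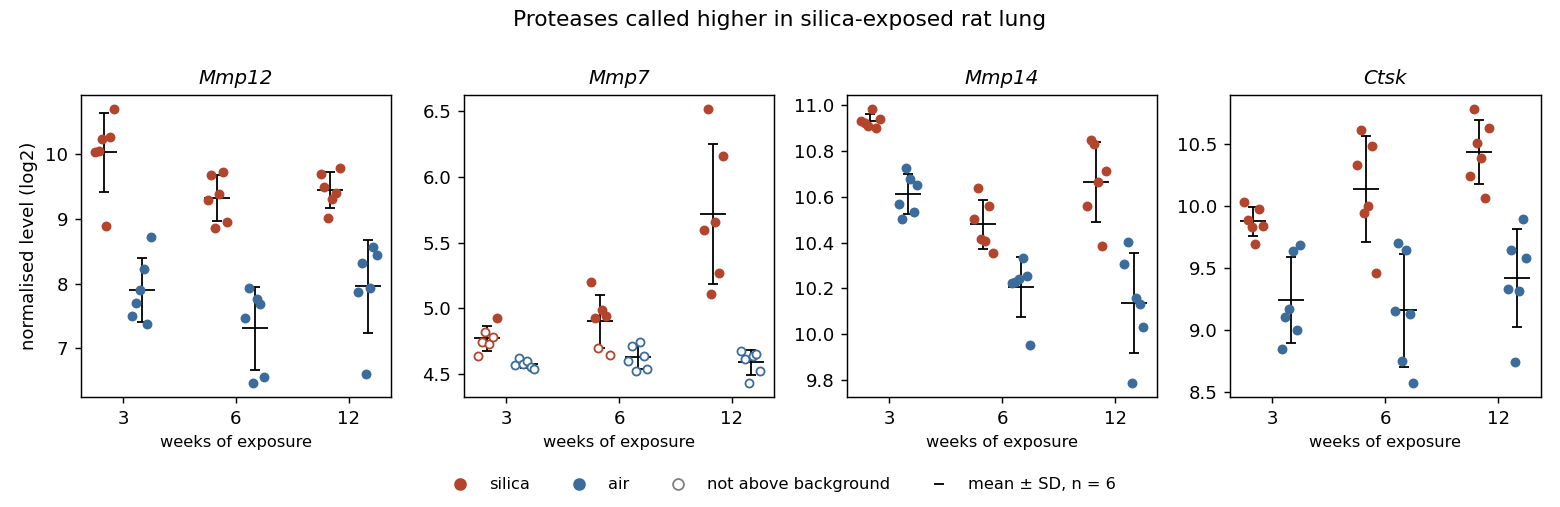
Normalised log2 level in each rat of the 4 proteases that were called higher at 12 weeks, for silica (left of each pair) and air at 3, 6 and 12 weeks, with filled points above background, open points not above it, and black bars for mean ± SD (n = 6). Silica rats stood above all air rats for Mmp12 at each week, for Mmp7 and Ctsk at 3 and 12 weeks and for Mmp14 at 3 and 6 weeks, and no air rat exceeded background for Mmp7 at any week.

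Mmp14, the membrane-type metalloproteinase that activates pro-MMP2 and cleaves collagen at the cell surface, was called higher at each week with small changes. At 3 weeks the silica rats lay within 10.90 to 10.98 (median 10.93), against 10.50 to 10.73 (median 10.61) in air rats. At 6 weeks they lay at 10.36 to 10.64 (median 10.46) in silica, against 9.95 to 10.33 (median 10.23) in air. The groups stood apart at both weeks. At 12 weeks the silica rats lay at 10.38 to 10.85 (median 10.69) and the air rats at 9.78 to 10.40 (median 10.14), with 5 of 6 silica rats above all air rats. Mmp14 rose by 0.32 ± 0.08 (1.25-fold, adjusted p = 0.00477) at 3 weeks, by 0.28 ± 0.08 (1.21-fold, 0.0115) at 6 weeks and by 0.53 ± 0.08 (1.44-fold, 4.15e-06) at 12 weeks. The effect at 12 minus 3 weeks was 0.21 with an interval of -0.01 to 0.43 (adjusted p = 0.256).

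Ctsk, cathepsin K, was the other member called higher at each week. At 3 weeks its level lay at 9.69, 9.86 and 10.03 in silica rats (lowest, median and highest), against 8.85, 9.14 and 9.69 in air rats. The groups stood just apart, the lowest silica rat at 9.691 and the highest air rat at 9.686. At 6 weeks the silica rats lay at 9.46, 10.16 and 10.61, against 8.57, 9.14 and 9.70 in air, and 5 of 6 silica rats exceeded all air rats. At 12 weeks they lay at 10.07, 10.45 and 10.78 in silica, against 8.74, 9.46 and 9.90 in air, with no overlap. Ctsk rose by 0.64 ± 0.19 (1.55-fold, adjusted p = 0.0236) at 3 weeks, by 0.98 ± 0.19 (1.97-fold, 0.000342) at 6 weeks and by 1.02 ± 0.19 (2.02-fold, 0.000148) at 12 weeks.

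The 3-week call for Ctsk was lost without air rat 1 (adjusted p = 0.0615), without air rat 5 (0.0603), and without both arrays that stood between the weeks (0.0552, log2 change 0.59), over a range of 0.0103 to 0.0615 among the alternatives. The effect at 12 minus 3 weeks was 0.38 with an interval of -0.17 to 0.94 (adjusted p = 0.408). Of the osteoclast-related markers, Calcr and Tnfrsf11a exceeded background on 0 arrays, and only Oscar of 8 listed genes was tested. Oscar exceeded background on all 36 arrays. It was not called at 3 weeks (log2 change 0.21) and was called higher at 6 and 12 weeks (0.30 and 0.37). Its relation to the change of Ctsk was not tested.

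Of the alveolar macrophage list, 7 of 13 genes were tested, and 2, 4 and 3 of them were called higher at 3, 6 and 12 weeks, against 7.51%, 8.8% and 11.7% of all genes, and 0 lower in limma (0, 1 and 0 lower at an unadjusted p under 0.05). These were Trem2 and Atp6v0d2 at each week, Mrc1 at 6 and 12 weeks and Pparg at 6 weeks, and the genes named here from the cell lists were chosen after their values were seen. The mean level of all 7 tested genes lay at 8.21 to 8.31 in silica and 7.71 to 8.10 in air at 3 weeks. It lay at 7.85 to 8.47 in silica and 7.51 to 8.08 in air at 6 weeks. At 12 weeks it lay at 8.22 to 8.52 in silica and 7.73 to 8.17 in air. The probe of Marco, a defining receptor of these cells, exceeded background on 0 of 36 arrays, while Mrc1, Trem2, Pparg, Fabp4, Atp6v0d2 and Olr1 did so on all 36. Of 8 tested genes of the monocyte and dendritic cell list, 5, 4 and 4 were called higher, against the same shares, and 1 lower at each week, against 6.08%, 8.5% and 14.2% of all genes. The mean level of that list at 12 weeks was 8.44 to 8.70 in silica and 8.36 to 8.46 in air. The summed macrophage markers moved with Mmp12 and Ctsk, and the part of either list in these results was not tested. In lung RNA, more cells of a type and more RNA per cell cannot be told apart, and likewise fewer cells and less RNA.

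The genes whose 3 changes lay nearest to those of a member were sought among all tested genes, by the Euclidean distance between log2 changes at 3, 6 and 12 weeks. For Ctsk these were Batf (distance 0.057), Sting1 (0.0724) and Slc7a7 (0.0927). For Mmp14 they were Ramp3 (0.0399), Myo7a (0.059) and Slc16a1 (0.0757). No gene lay as near to Mmp12, whose closest were Tmem45b (0.712), Noxo1 (0.799) and Rnase9 (0.929). Tmem45b changed by 1.54, 1.97 and 1.90 at 3, 6 and 12 weeks, Noxo1 by 1.59, 2.33 and 1.99, and Rnase9 by 1.79, 2.66 and 2.06, all with their smallest change at 3 weeks, where Mmp12 had its largest.

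Rats of the same group also differed in these genes, and the levels of several members varied together. After subtraction of each group's mean, the 36 rats gave 55 relations (45 member pairs and 10 of a member with the macrophage list), tested by 100000 permutations within groups and adjusted over the 55; they were chosen after the levels had been seen. By Pearson's r 12 passed, 8 of them between members and 4 with the macrophage list, and 11 of the 12 were positive. They include relations of Mmp7 (with the macrophage list, Ctsk and Mmp12) and of Mmp8 (with Timp3, Timp2 and Mmp12). Mmp7 exceeded background on only 11 of 36 arrays, none of them air, and Mmp8 on 21. Within weeks 3, 6 and 12, r of Mmp7 with the macrophage list was -0.018, 0.648 and 0.56. With Ctsk it was -0.132, 0.698 and 0.492, and with Mmp12 0.375, 0.574 and 0.317. By rho, Mmp14 with the macrophage list and Mmp8 with Timp3 and with Mmp12 did not pass (adjusted permutation p = 0.0684, 0.0684 and 0.128). Ctsk followed the mean of the 7 macrophage markers most closely (r = 0.917, rho = 0.890, adjusted permutation p = 0.000183 for both, from 1e-05, the smallest that the permutations can give). Without the 2 rats farthest from the median of Ctsk, r was 0.900. Within weeks 3, 6 and 12 it was 0.948, 0.970 and 0.801.

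Mmp12 and Ctsk also varied together (r = 0.765, rho = 0.781, adjusted permutation p = 0.000183 for both), with r = 0.761 without the 2 farthest rats and 0.70, 0.86 and 0.769 within weeks 3, 6 and 12. Over the 18 silica rats r was 0.439, against 0.933 over the 18 air rats. Within single groups of 6, r was 0.555, 0.831 and 0.061 in silica at 3, 6 and 12 weeks, against 0.935, 0.913 and 0.971 in air. The difference between silica and air rats was not tested. Mmp12 and the macrophage list had r = 0.725 and rho = 0.786 (adjusted permutation p = 0.000183 for both; 0.758 without the 2 farthest rats). Mmp14 and Ctsk had r = 0.660 and rho = 0.621 (adjusted permutation p = 0.00088 and 0.00429; 0.572 without the 2 farthest rats). Mmp12 and Mmp14 did not pass (r = 0.409, adjusted permutation p = 0.0927).

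**Figure D3:**
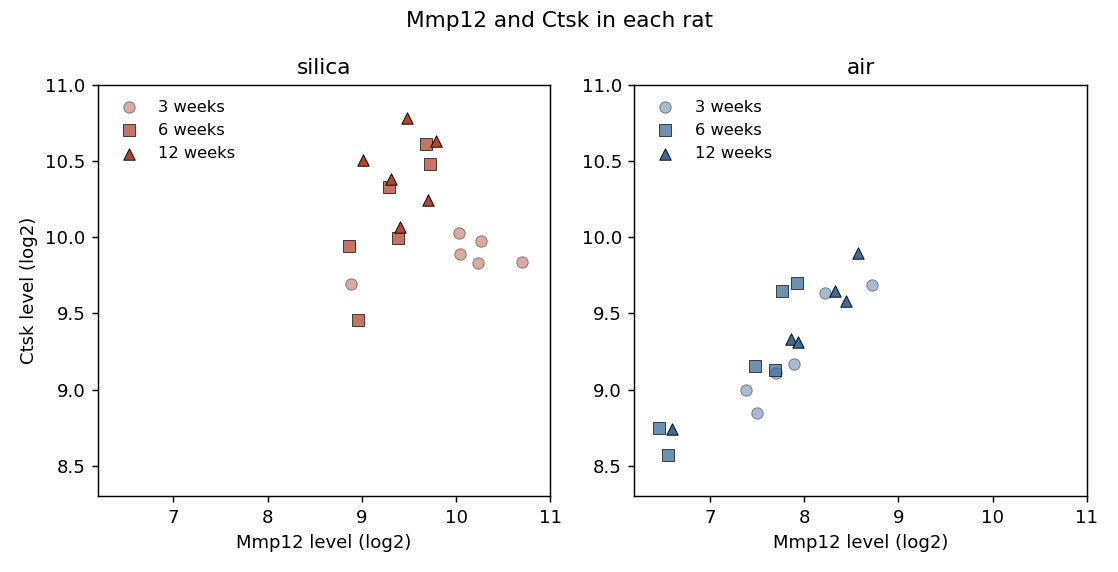
Normalised log2 level of Ctsk against that of Mmp12 in each rat, for silica (left panel) and air (right panel), with one symbol per week. Ctsk rose with Mmp12 among the air rats (r = 0.933 after subtraction of group means, which the plotted levels keep). The silica rats lay higher in Mmp12 and mostly higher in Ctsk, with a looser relation (r = 0.439 after the same subtraction).

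Mmp8, Mmp9 and Mmp2 were called at no week. Mmp8, the neutrophil collagenase, exceeded background in 1, 6 and 4 of 6 silica rats at 3, 6 and 12 weeks and in 2, 6 and 2 of 6 air rats. At 6 weeks the silica rats lay at 5.97, 6.14 and 6.70 (lowest, median and highest), against 5.65, 5.89 and 6.26 in air, a difference of 0.30 ± 0.12 (adjusted p = 0.0901). The groups overlapped, with 2 silica rats above all air rats. That difference passed in a fit of the authors' deposited log2 values (0.12, adjusted p = 0.0279), with the background from all probes (0.05, 0.0408), with array weights (0.0393), and without air rat 3 of that week (0.0453) or the 2 arrays that stood between the weeks (0.0428), over a range of 0.0279 to 0.26 among the alternatives. At 12 weeks the range was 4.80 to 5.60 in silica and 4.70 to 5.09 in air (difference 0.26 ± 0.12, adjusted p = 0.118; 0.16 without silica rat 3), and at 3 weeks 4.58 to 5.04 in silica and 4.69 to 5.16 in air (-0.05 ± 0.12, 0.817).

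Mmp9, the gelatinase of neutrophils and macrophages, exceeded background on all 36 arrays and hardly differed. Its silica rats spanned 6.34 to 6.75, 6.18 to 6.63 and 6.49 to 6.63 at 3, 6 and 12 weeks, against 6.22 to 6.61, 6.23 to 6.62 and 6.391 to 6.804 in air rats. The 95% confidence intervals of the change were -0.06 to 0.26, -0.16 to 0.16 and -0.13 to 0.18 (adjusted p = 0.419, 0.995 and 0.838).

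Mmp2, the gelatinase made mostly by fibroblasts, was near background. At 3 weeks it exceeded background in 6 of 6 silica and 5 of 6 air rats, at 6 weeks in 0 of 6 rats of either group, and at 12 weeks in 2 of 6 silica and 0 of 6 air rats. Its level at 3 weeks was 5.12 to 5.39 in silica and 4.85 to 5.73 in air, a difference of -0.07 ± 0.08 (adjusted p = 0.652). At 6 weeks no fold can be given, as neither group exceeded background.

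Among neutrophil markers, 2, 3 and 4 of 7 tested were called higher at 3, 6 and 12 weeks, against 7.51%, 8.8% and 11.7% of all genes, while Mmp8 and Mmp9 had no call. They were S100a8 and Il1r2 at each week, Cxcr2 at 6 and 12 weeks and Itgam at 12 weeks. The mean level of that list was 6.53 to 6.95 in silica and 6.13 to 6.54 in air at 12 weeks, while Elane, Ltf and S100a9 exceeded background on 0 arrays. Of 10 fibroblast markers, 0 were called higher at any week, also at an unadjusted p under 0.05 in limma, and 1, 2 and 1 were called lower at 3, 6 and 12 weeks (Tcf21 at 3 and 6 weeks, Mfap5 at 6 and 12 weeks). Over all genes, 6.08%, 8.5% and 14.2% were called lower at these weeks.

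**Figure D4:**
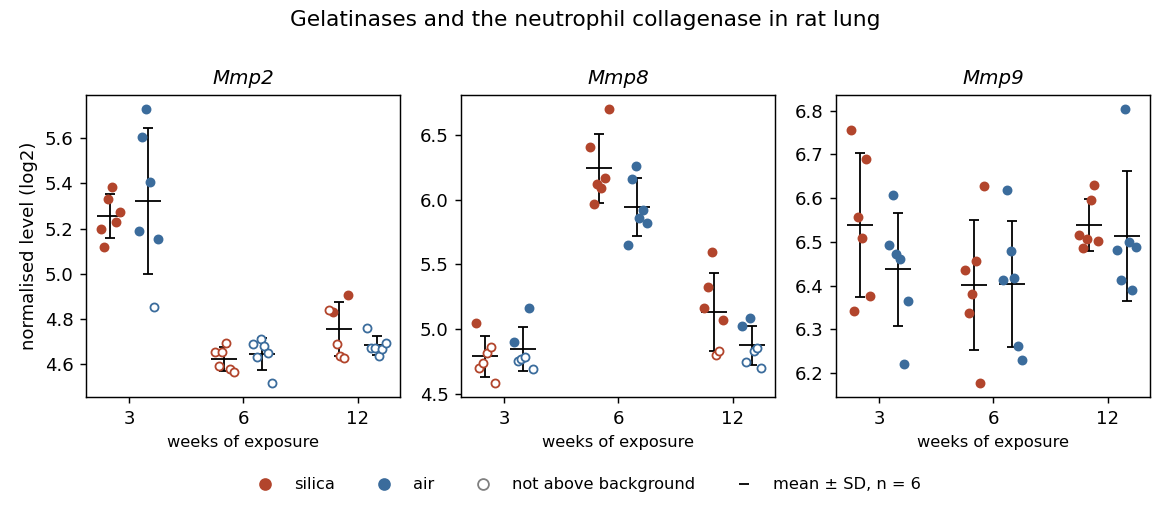
Normalised log2 level in each rat of Mmp2, Mmp8 and Mmp9 for silica (left of each pair) and air at 3, 6 and 12 weeks, with filled points above background, open points not above it, and black bars for mean ± SD (n = 6). Silica and air overlap in every pair, and Mmp8 lies higher at 6 weeks in both.

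Timp1, the inhibitor of most secreted metalloproteinases and the one best known as induced in injury, was called at 12 weeks. There the silica rats lay at 10.96, 11.12 and 11.27 (lowest, median and highest), against 10.67, 10.75 and 11.03 in air rats. Of the 6 silica rats, 4 exceeded all air rats, and the highest air rat, rat 4 at 11.03, stood well above the other 5. Timp1 rose by 0.33 ± 0.07 (1.26-fold, adjusted p = 0.00101) at 12 weeks, and with median scaling the change was 0.25 and not called (0.0773, the highest of the alternatives, from 0.000243). At 3 weeks the range was 10.78 to 11.10 in silica and 10.56 to 10.93 in air (0.16 ± 0.07, adjusted p = 0.144). At 6 weeks it was 10.653 to 10.999 in silica and 10.61 to 11.03 in air (-0.03 ± 0.07, 0.872).

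Timp2, the inhibitor that also binds MMP14 and pro-MMP2, was the single member called lower, at 3 weeks. The silica rats lay at 8.46, 8.97 and 9.07 (lowest, median and highest), against 9.06, 9.11 and 9.31 in air rats, and 5 of 6 silica rats lay below all air rats. Timp2 fell by 0.27 on the log2 scale (SE 0.08, adjusted p = 0.0124). The call was lost without silica rat 4 of that week, the lowest (adjusted p = 0.0502), with median scaling (0.0871, -0.18), and in a fit of that week's arrays alone (0.103), over a range of 0.00587 to 0.103. At 6 weeks the change was -0.11 ± 0.08 (adjusted p = 0.359) and at 12 weeks 0.08 ± 0.08 (0.458). The effect at 12 weeks minus that at 3 weeks was 0.35 ± 0.11 with an adjusted p of 0.0554, and under 0.05 in 5 of 33 alternatives. It was 0.19 with median scaling (0.188, the highest, with 0.0377 as the lowest) and 0.23 with array weights (0.146). Between 3 and 12 weeks the silica mean of Timp2 went from 8.875 to 8.925. The air mean went from 9.148 to 8.843 (limma, change -0.305, adjusted p = 0.00343), so the difference in effect does not show a rise in silica rats.

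Timp3, the inhibitor that is bound to the matrix, was called at no week. At 3 weeks its silica rats lay at 5.45, 6.05 and 6.29 (lowest, median and highest), against 5.75, 6.03 and 7.54 in air. At 12 weeks the silica rats lay at 5.62, 5.94 and 7.90, against 5.63, 5.81 and 6.08 in air. The highest value of each week belonged to a rat that lay between the weeks on the first component. The change was -0.28 ± 0.26 (adjusted p = 0.501) at 3 weeks and -0.02 without air rat 5, and it was 0.40 ± 0.26 (0.262) at 12 weeks and 0.07 without silica rat 3. At 6 weeks all silica rats (7.92 to 8.26) lay within the range of the air rats (7.86 to 8.37), with a change of -0.04 ± 0.26 (0.947).

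**Figure D5:**
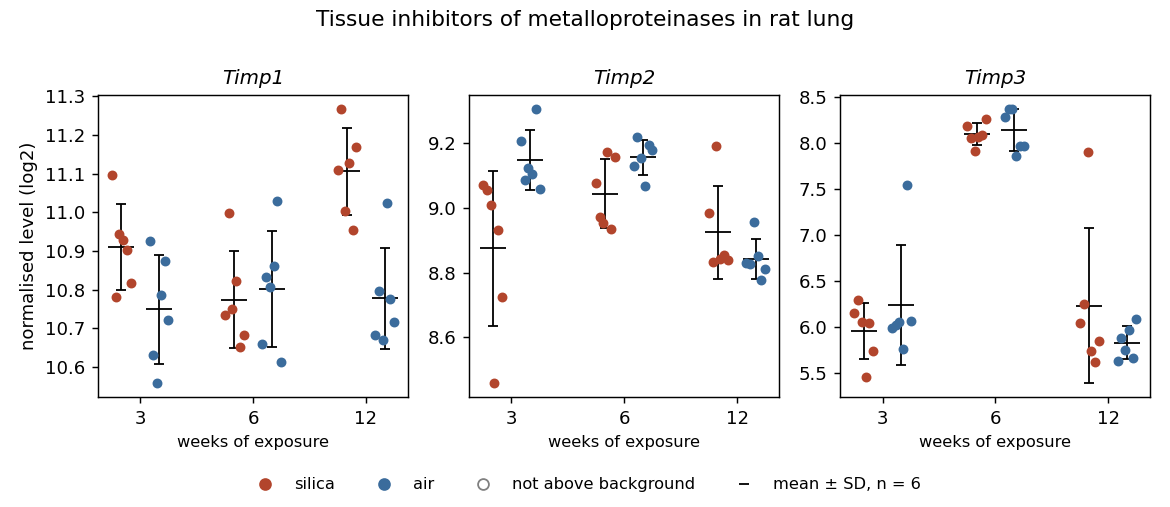
Normalised log2 level in each rat of Timp1, Timp2 and Timp3 for silica (left of each pair) and air at 3, 6 and 12 weeks, with black bars for mean ± SD (n = 6). Timp1 is higher in silica at 12 weeks, Timp2 lower at 3 weeks, and Timp3 is high in both groups at 6 weeks and in 1 rat each of the 3-week air and 12-week silica groups.

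The air groups alone gave the levels without silica. An F test over the 3 air groups called Mmp2, Mmp8, Mmp14, Timp2 and Timp3, 5 of 10 genes where 75.8% of all tested genes were called. Timp3 in air was higher by 1.90 ± 0.26 at 6 weeks than at 3 weeks (adjusted p = 1.15e-07) and lower by 2.31 at 12 weeks than at 6 (change -2.31 ± 0.26, 2.1e-09). Over all genes 65.2% differed in air between 6 and 3 weeks, 21.6% between 12 and 3 weeks and 64.9% between 12 and 6 weeks. Its 12 arrays of week 6 lay at 7.86 to 8.37 and 22 arrays of the other weeks at 5.45 to 6.29, while the 2 rats between the weeks had 7.54 (air, 3 weeks) and 7.90 (silica, 12 weeks). Mmp8 in air was called higher at 6 than at 3 weeks (2.83e-09) and lower at 12 than at 6 weeks (3.20e-09), with 6 of 6 air rats above background at 6 weeks and 2 of 6 at each of the other weeks. Mmp14 in air was lower at 6 than at 3 weeks (-0.41 ± 0.08, 3.38e-05) and lower at 12 than at 3 weeks (-0.47 ± 0.08, 3.82e-05). Timp2 in air was lower at 12 than at 6 weeks (-0.31 ± 0.08, 0.00043) and at 12 than at 3 weeks (-0.305 ± 0.075, 0.00343). With median scaling the F test also called Mmp9, Mmp12, Ctsk and Timp1.

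Between weeks, the silica effect of 0 of the 10 genes differed between 6 and 3 weeks in limma (0.0771% of all genes were called), and 1 did at an unadjusted p under 0.05. Between 12 and 6 weeks 0 were called, where 0.0110% of all genes were, and 3 passed at an unadjusted p under 0.05, Mmp7 (adjusted p = 0.0560, in air rats without a measured level), Timp1 (0.36 ± 0.10, 0.179) and Mmp14 (0.25 ± 0.11, 0.349).

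Other genes of matrix breakdown were taken from 4 lists. Of 8 further genes tested, 7 metalloproteinases and Reck, 0 were called higher at any week in limma (1, 0 and 1 at an unadjusted p under 0.05), and 0, 1 and 3 were called lower at 3, 6 and 12 weeks, against 6.08%, 8.5% and 14.2% of all genes. Reck, a membrane-anchored inhibitor of metalloproteinases, fell by 0.27 on the log2 scale at 6 weeks (SE 0.07, adjusted p = 0.00341), with every silica rat below every air rat, a separation seen in 4.65% of all genes. It fell by 0.26 at 12 weeks (SE 0.07, 0.00349). Mmp11 (stromelysin 3) fell by 0.34 (SE 0.09, 0.00541) and Mmp28 by 0.15 (SE 0.05, 0.0465) at 12 weeks, and Mmp28 lost the call under many of the alternatives. The median change of the list was -0.02, -0.06 and -0.13 at 3, 6 and 12 weeks. Of 11 ADAM and ADAMTS genes, 0 were called higher at any week (0, 1 and 1 at an unadjusted p under 0.05) and 1 lower at 6 weeks, where 8.5% of all genes were. It was Adamts7 (-0.24 ± 0.08, limma, adjusted p = 0.0427), a call lost under 15 of 22 alternatives (adjusted p up to 0.311, with a change of -0.035 there).

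Of 13 cathepsins, legumain and cystatins other than Ctsk, 8, 8 and 9 were called higher at 3, 6 and 12 weeks, against 7.51%, 8.8% and 11.7% of all genes, and 1 lower at each week, with median changes of 0.25, 0.22 and 0.31. The larger changes at 12 weeks were those of Ctsd (0.60 ± 0.13, adjusted p = 0.000537), a lysosomal aspartic protease, of Ctss (0.56 ± 0.07, 3.25e-07), which trims the invariant chain in antigen-presenting cells and cleaves elastin, of Lgmn (0.54 ± 0.08, 3.58e-06), an asparaginyl protease that activates cathepsins, and of Ctsh (0.50 ± 0.07, 5.02e-07), which is also active in surfactant protein processing. For Ctsh, Lgmn and Ctss, every silica rat stood above all air rats at each week. The gene called lower was Ctsl, cathepsin L, with changes of -0.15 ± 0.05, -0.14 ± 0.05 and -0.20 ± 0.05 at 3, 6 and 12 weeks (adjusted p = 0.0341, 0.0337 and 0.00231), and 2.3% of all genes were called lower at all 3 weeks. The Ctsl calls at 3 and 6 weeks were lost under 10 and 9 of 22 alternatives and those of Ctse, called higher, under 6 and 8, median scaling among them for Ctsl at both weeks and for Ctse at 6 weeks, while both genes kept the 12-week call under all 22. With median scaling the calls of Ctsc, Cst7 and Cstb at 12 weeks were also lost.

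Of 21 serine proteases and serpins tested, 3, 3 and 6 were called higher and 1, 3 and 2 lower at 3, 6 and 12 weeks, with median changes of 0.08, -0.02 and 0.06. Over all genes, 7.51%, 8.8% and 11.7% were called higher and 6.08%, 8.5% and 14.2% lower at these weeks. Slpi, the secretory leukocyte protease inhibitor, which blocks neutrophil elastase, rose by 0.64 ± 0.16 at 3 weeks (adjusted p = 0.00626) and by 0.89 ± 0.16 at 12 weeks (7.65e-05), where every silica rat lay above every air rat. The 3-week call of Slpi was lost in a fit of that week's arrays alone (limma, adjusted p = 0.0738). Serpine2, protease nexin 1, rose by 0.46 ± 0.13, 0.52 ± 0.13 and 0.57 ± 0.13 at 3, 6 and 12 weeks (0.0130, 0.00307 and 0.000913). Its 3-week call was lost under 2 of 22 alternatives, among them the fit without air rat 5 of that week (limma, adjusted p = 0.0554). Serpinb1a, an inhibitor of neutrophil serine proteases inside cells, rose by 0.43 ± 0.06, 0.44 ± 0.06 and 0.47 ± 0.06 (8.66e-06, 2.21e-06 and 4.63e-07), with the groups apart at each week. Serpinb9, the granzyme B inhibitor, was called lower at each week (-0.15 ± 0.05, -0.20 ± 0.05 and -0.13 ± 0.05), and with median scaling at none. Its calls at 3 and 12 weeks were lost under 6 and 10 of 22 alternatives. The other calls were Plau and Serpina1 lower at 6 weeks, St14 higher at 6 and 12 weeks, and Spint1 and Serpina3n higher and Plat lower at 12 weeks. These 6 genes and Adamts7 were named after their values were seen. The call of Serpina1 was lost under 13 of 22 alternatives (limma, adjusted p up to 0.15) and that of Plat under 4 of 22 (up to 0.0713). Spint1 lost its call with median scaling (0.215) and Serpina3n in a fit of that week's arrays alone (0.0927). Plau and St14 kept theirs under all 22.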

How the data were processed

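Illumina rat BeadChips measured lung RNA of 36 rats, and the number of arrays limits the precision. The deposited table gave, per the file headers, a mean bead intensity and a detection p-value per probe and array, with no background subtraction. A second deposited table held log2 values that the authors had processed; per the submitters' processing notes the tools were limma, lumi and BeadStudio, and the transformation is not given in the sources used here. It served as an alternative. The members and gene lists were chosen with earlier results of these data known.

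Symbols came from the array annotation through Entrez numbers to RefSeq. Background mean and SD were inferred from the detection p-values of the 21204 probes that lay on the grid of the negative controls (within 0.01 of a step; the other 588 were left out of this estimate). Background correction, quantile normalisation and log2 with an offset of 16 followed neqc in limma 3.58.1 (R 4.3.3). Probes with a detection p under 0.05 on at least 6 arrays were kept. One two-sided limma model of 9078 genes had 6 group means and 30 residual degrees of freedom. The labels name separate rats. The steps were tested on simulated data.

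All members are named. From the other lists, genes called at 12 weeks with the 4 largest changes, or called at all 3 weeks, may be named, and for members called at all 3 weeks the 3 nearest genes. A fold for a probe not well above background in a group is a bound against the lowest signal above background.

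Alternatives were the background from all probes, no background correction, median scaling, the authors' values, no filter, detection on at least 12 arrays, array weights, single weeks, the replicate number as a block, leaving out 2 arrays together and leaving out each rat.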

Additional observations from a re-analysis of the deposited data

Results flagged for a closer look

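In 7 of 60 groups of 6 rats, 1 rat lay apart from the others by Dixon's ratio, where chance flags about 1 group in 20. These were rat 4 of the 3-week silica group in Mmp12 (8.88) and rat 3 of the 12-week air group in Mmp12 (6.60) and Mmp9 (6.804). They also were rat 6 of the 6-week air group in Mmp14 (9.95) and rat 4 of the 12-week air group in Timp1 (11.03). Timp3 had rat 3 of the 12-week silica group (7.90) and rat 5 of the 3-week air group (7.54), the 2 rats whose arrays lay between the weeks on the first component. The silica effect on Mmp7 differed between 12 and 3 weeks in the test of that difference, by 0.93 in fitted levels and by 0.10 to 1.06 over the alternatives, with no air rat above background.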

How the results depend on the processing

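The counts of members called higher were 3, 3 and 5 at 3, 6 and 12 weeks. They did not move by more than 1.5 times under any alternative, and ranged from 2 to 3, 3 to 4 and 5 to 5 when each rat was left out. The count called lower at 3 weeks, 1 (Timp2), was 0 with median scaling and in a fit of the week's arrays alone, and ranged from 0 to 1 when each rat was left out. Over all genes, median scaling called 574 higher and 92 lower at 3 weeks, 487 and 205 at 6, and 604 and 1255 at 12, against 682 and 552, 799 and 772, and 1061 and 1289, and the arrays of week 3 alone gave 312 lower. The directions that turned belonged to differences that were not called. Turned values with median scaling were 0.025 (Mmp9) and 0.003 (Timp1) for silica minus air at 6 weeks, -0.007 (Mmp2, effect at 6 minus 3 weeks), -0.012 (Timp1, 12 minus 3) and -0.055 (Ctsk, 12 minus 6). With array weights they were 0.001 (Mmp8, 3 weeks), -0.037 (Timp3, 6 minus 3) and -0.015 (Ctsk, 12 minus 6), and without both arrays between the weeks 0.01 (Mmp8, 3 weeks) and -0.019 (Timp3, 6 minus 3). Leaving out each rat gave ranges across 0 for silica minus air of Mmp2 (-0.162 to 0.014) and Mmp8 (-0.105 to 0.01) at 3 weeks and of Mmp9 (-0.046 to 0.044), Timp1 (-0.072 to 0.019) and Timp3 (-0.097 to 0.005) at 6 weeks. It did so for the 6 minus 3 weeks effect of Mmp2 (-0.037 to 0.139), Mmp12 (-0.346 to 0.017) and Timp3 (-0.019 to 0.339), and for the 12 minus 6 weeks effect of Mmp8 (-0.135 to 0.051), Mmp9 (-0.018 to 0.086) and Ctsk (-0.098 to 0.156). The cause of these shifts was not tested. Asking for detection on 12 arrays dropped Mmp7, which exceeded background on 11. With the replicate number as a block, 3, 3 and 5 members were called higher and 1, 0 and 0 lower, as without it. Among the other listed genes, Adamts7 lost its call at 6 weeks with the block (limma, adjusted p = 0.0531). Deviations from the group means had r from -0.27 to 0.44 between same-numbered silica and air rats, over 0.1 in 7 of 18 pairs. As these values were not set against those of differently numbered rats, a pairing by number was not tested. Signal over background limits Mmp2, Mmp7 and Mmp8, which on many arrays did not exceed it.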

Other observations

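Beyond the relations given above, Timp2 and Timp3 varied together within groups (r = 0.650, rho = 0.617, adjusted permutation p = 0.000412 and 0.00429, 36 rats; r = 0.565 without the 2 farthest rats). Mmp8 and Timp3, both high at 6 weeks, had r = 0.593 and rho = 0.412 (adjusted permutation p = 0.00589 and 0.0684), and r = 0.354 without the 2 rats whose arrays lay between the weeks. Mmp8 and Timp2 had r = 0.485 and rho = 0.526 (adjusted permutation p = 0.0141 and 0.0152). Their r was 0.322 without the 2 rats between the weeks and 0.357 without the 2 farthest rats. Mmp8 and Mmp12 had the single negative relation that passed by Pearson's r (r = -0.411, rho = -0.361, adjusted permutation p = 0.0386 and 0.128).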
